A study of Mus musculus with 2 samples.

Results

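Purine and pyrimidine nucleotide metabolism was described through 50 genes for enzymes that make, salvage, interconvert and break down nucleotides. The genes were chosen by what their products do, with earlier results of these data known. Each was read from a probe set that names it alone. Where a gene had several, the probe set whose mean over the arrays was highest was taken. Of the 50 genes, 49 were measured in this way, among 19935 genes in all. Impdh2, the main IMP dehydrogenase of dividing cells, had no such probe set here.

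The cells were Ba/F3, a mouse pro-B-like line that normally depends on interleukin-3 (IL-3), carrying constitutively expressed BCR-ABL, the fusion kinase of chronic myeloid leukaemia. One group was BCR-ABL Ba/F3 cells grown with IL-3, and the other was the same cells grown without IL-3. By the treatment protocol both received imatinib, an inhibitor of the ABL kinase, at 5 µM for 6 h in medium with 10% serum, and both samples were titled as live cells. The question was how cells bound to survive imatinib, those with IL-3, differ from cells bound to die, those without it. Each group had 1 array, which allows neither a test nor an error between conditions, and every difference compares these 2 arrays. The labels conflict in places: the description of the array titled with IL-3 gives a culture lacking it, and the source name of the other can be read as without imatinib, so the direction rests on the sample titles.

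Dividing cells supply nucleotides by building purine and pyrimidine rings from small precursors and by recycling bases and nucleosides. Both routes draw on phosphoribosyl pyrophosphate (PRPP), the activated sugar. Purines are assembled step by step on the sugar up to IMP, which is then turned into AMP or GMP, whereas the pyrimidine ring is made as orotate, joined to the sugar as UMP and then converted to CTP. Ribonucleotide reductase turns ribonucleotides into the deoxynucleotides that DNA synthesis uses, and haematopoietic cells also draw on salvage. MYC and E2F are textbook regulators of many of these genes.

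Each deposited value was a log value, taken as log2, relative to a baseline of its probe set that the sources used here do not give. A value of 0 therefore lies at the baseline and is not an absence of RNA, and levels of different genes cannot be set against each other. Each difference is the value with IL-3 less the value without it, on the log2 scale, so that a positive one means higher with IL-3, and folds are computed from them. A higher value was read as more RNA, which the sources do not state. As a yardstick for measurement scatter within the arrays, probe sets of the same gene differed with a pooled SD of 0.14, over 998 genes with more than 1 probe set. This SD does not cover differences between cultures. In RNA from a whole culture, more cells of one kind and more RNA per cell cannot be told apart.

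Most nucleotide metabolism genes were higher with IL-3. The 49 genes had a median difference of 0.43, against 0.04 over all 19935 genes, and 36 of them (73.5%) were above 0, against 59.8% of all genes. At least 2-fold higher were 5 genes (10.2%, against 0.441% of all genes), namely Rrm2, Ctps, Tk1, Nme1 and Hprt. At least 1.5-fold higher were 18 genes (36.7%, against 3.52% of all genes). At least 2-fold lower was 1 gene, Nme7 (2.04%, against 0.657% of all genes), and at least 1.5-fold lower were Nme7 and Nt5c2 (4.08%, against 2.71%). The remaining 29 genes differed by less than 1.5-fold, and 10 of the 49 by less than the probe set SD. At the 2-fold limit, Hprt lay just inside on the higher side at 1.04 and Ak4 just outside at 0.997.

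These counts depended on the scaling. When a smooth (loess) trend of the difference on the mean value was subtracted, 2 genes (Rrm2 and Ctps) were at least 2-fold higher against 0.145% of all genes, 10 genes (20.4%) were at least 1.5-fold higher against 1.79% of all genes, and the median was 0.25. On the lower side, that scaling gave 1 gene at 2-fold, again Nme7 (against 1.03% of all genes), and 3 genes at 1.5-fold (against 3.70%).

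**Figure D1:**
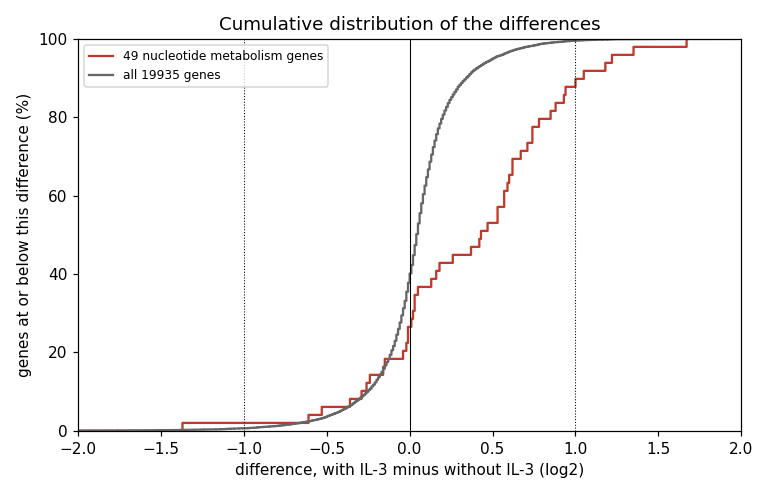
Cumulative share of genes (vertical axis, %) at or below each difference between the arrays (horizontal axis, log2, with IL-3 minus without IL-3), for the 49 nucleotide metabolism genes and for all 19935 genes. Dotted lines mark 2-fold. The curve of the nucleotide metabolism genes lies to the right of that of all genes through most of its height, with medians of 0.43 and 0.04.

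The genes also lay high against the baseline on both arrays. With IL-3, 44 of the 49 (89.8%) were above their baseline, against 45.3% of all genes, and without IL-3 46 of the 49 (93.9%) were, against 43.4% of all genes. Their median value was 0.81 with IL-3 and 0.37 without IL-3. The arrays behind the baseline are not known, so these shares describe a position against it and not a level.

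Genes with a high mean value scattered more between the arrays. In the top quartile of all genes by mean value, the median difference was 0.11 and the scaled median absolute deviation was 0.42, whereas that deviation lay between 0.10 and 0.18 in the other quartiles. The top quartile held 36 of the 49 nucleotide metabolism genes. Within it, all 5 of the genes at least 2-fold higher were found, 13.9% of these 36, against 1.71% of all genes in the quartile. Likewise all 18 of the genes at least 1.5-fold higher lay there. They were 18 of these 36 genes, against 12.8% of all genes in the quartile. The 36 genes had a median difference of 0.59. In the third quartile, which held 11 of the genes, the median difference was 0.00, and 0 of them were at least 1.5-fold higher. Of the 701 genes at least 1.5-fold higher in the whole series, 639 lay in the top quartile, so any such gene was rare outside it. A mean value is itself raised by a high value on 1 array, so the quartiles are not independent of the differences.

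**Figure D2:**
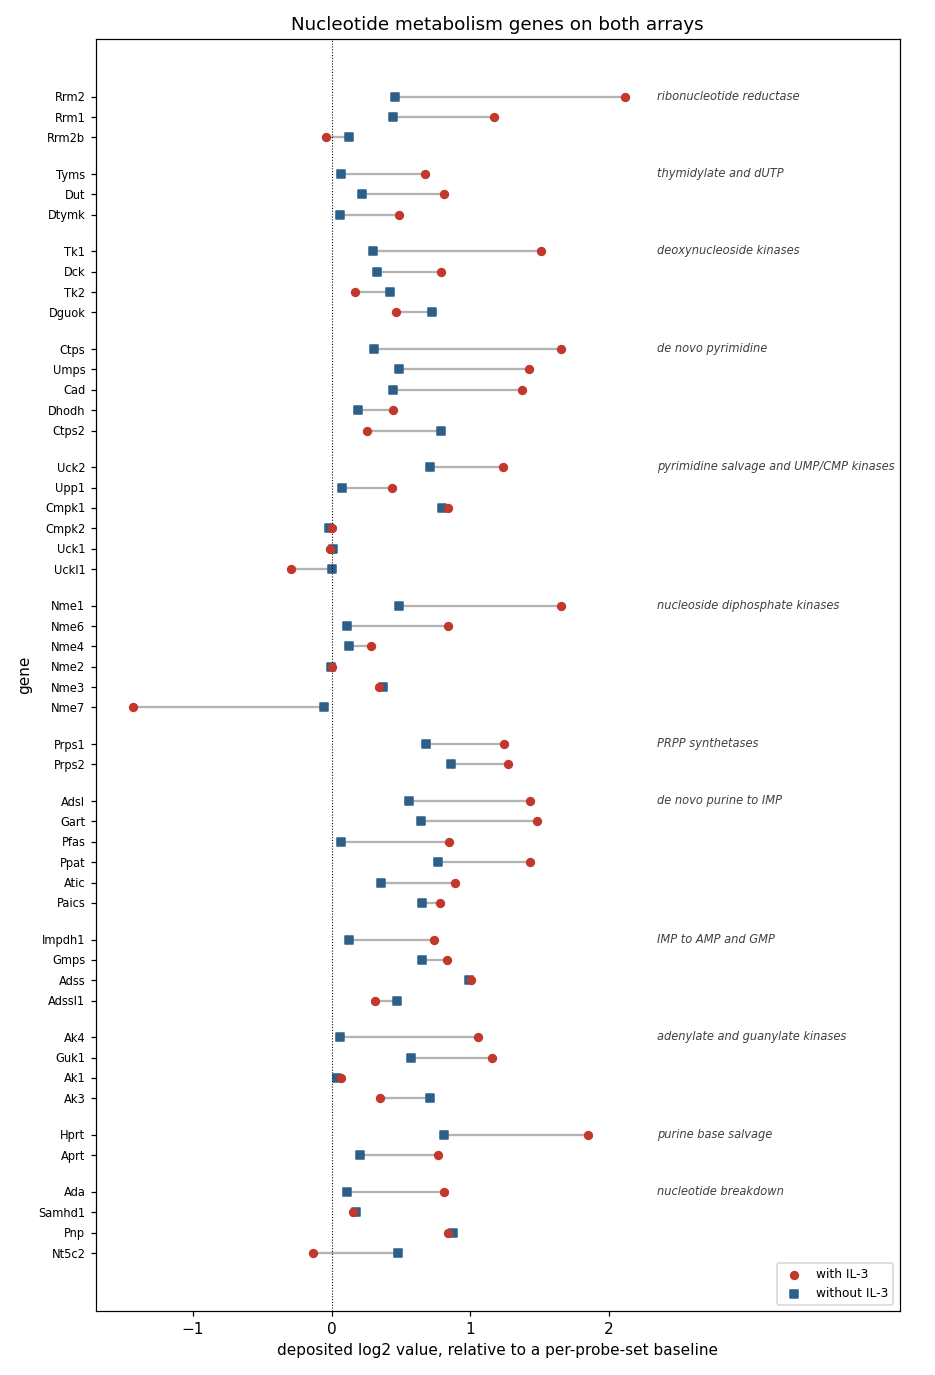
Deposited values of all 49 genes on both arrays (horizontal axis, log2 relative to a per-probe-set baseline), grouped by role, with circles for the array with IL-3 and squares for the array without IL-3, 1 array each. The line joining the points is the difference. Most circles lie to the right of their squares, farthest for Rrm2 (2.12 and 0.46), and Nme7 is the widest gap in the other direction (-1.43 and -0.05).

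Ribonucleotide reductase held the gene with the largest difference of the 49, Rrm2. The enzyme is built from a large catalytic subunit and a small subunit that holds the radical. Rrm2, the small subunit made in S phase, stood at 2.12 with IL-3 and 0.46 without IL-3 (probe set 10394978), a 3.17-fold difference that ranked 2 among all 19935 genes. Rrm1, the large subunit, had 1.18 with IL-3 and 0.44 without IL-3, which is 1.66-fold higher but no longer past 1.5-fold with the loess trend subtracted, at 0.50. Rrm2b, the alternative small subunit known as a p53 target that serves cells outside S phase, had -0.04 with IL-3 and 0.13 without IL-3, a difference of -0.17. The subunits of the S-phase enzyme were thus both higher with IL-3, and the alternative subunit was slightly lower, by little more than the probe set SD.

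The genes of thymidylate synthesis and dUTP removal were all higher. Tyms, which methylates dUMP to dTMP, had 0.68 with IL-3 and 0.07 without IL-3, a 1.53-fold difference. Dut, the dUTPase that keeps uracil out of DNA and provides dUMP, had 0.81 with IL-3 and 0.22 without IL-3, a 1.51-fold difference. Dtymk, which phosphorylates dTMP to dTDP, had 0.49 with IL-3 and 0.06 without IL-3, a difference of 0.43. The 3 differences were similar in size, within 0.43 to 0.61, and 2 of them passed 1.5-fold on the deposited scale. With quantile normalization or the loess trend subtracted 0 of them did.

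The deoxynucleoside kinases, which salvage deoxynucleosides, split by compartment. Tk1, the cytosolic thymidine kinase of dividing cells, had 1.51 with IL-3 and 0.30 without IL-3 (probe set 10582809), a 2.32-fold difference, and its second probe set gave 1.17 on the log2 scale. Dck, the cytosolic deoxycytidine kinase, had 0.79 with IL-3 and 0.33 without IL-3, a difference of 0.46. The mitochondrial kinases went the other way by small amounts. Tk2, the mitochondrial thymidine kinase, had 0.17 with IL-3 and 0.42 without IL-3, a difference of -0.25. Dguok, the mitochondrial deoxyguanosine kinase, had 0.46 with IL-3 and 0.72 without IL-3, a difference of -0.26.

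The 7 genes of DNA replication looked up, Mcm2 to Mcm7 and Pcna of the replicative helicase and sliding clamp, were also higher with IL-3. They were chosen after the values were seen, so their shares describe these genes and not replication genes at large. All 7 were above 0 (against 59.8% of all genes), from 0.28 for Pcna to 1.18 for Mcm5. At least 2-fold higher were 3 of them (42.9%, against 0.441% of all genes and 1.71% of those in the top quartile). Summed over the 7 genes the baseline-relative log values were 9.02 with IL-3 and 3.65 without IL-3, which are not totals of RNA. The part of a different share of cells in S phase in the differences above was not tested.

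Pyrimidine synthesis had the highest median of any role, 0.93 over 5 genes. Cad, the trifunctional enzyme that starts the pathway, had 1.37 with IL-3 and 0.45 without IL-3, which is 1.90-fold higher. Umps, which makes UMP from orotate, had 1.43 with IL-3 and 0.49 without IL-3, which is 1.91-fold higher. Ctps, which aminates UTP to CTP, had 1.65 with IL-3 and 0.31 without IL-3 (probe set 10515943), a 2.54-fold difference that ranked 12 among all genes. Dhodh, the mitochondrial enzyme between Cad and Umps, differed less, with 0.45 with IL-3 and 0.19 without IL-3, a difference of 0.25. Ctps2, the second CTP synthase, was lower, with 0.25 with IL-3 and 0.79 without IL-3, a difference of -0.54 that is 1.45-fold lower. With quantile normalization or the loess trend subtracted, Ctps2 passed 1.5-fold lower.

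Pyrimidine salvage and the UMP/CMP kinases showed little difference as a role, with a median of 0.03 over 6 genes and 0 of them at 1.5-fold in either direction. Uck2, the uridine-cytidine kinase linked to proliferating cells, had 1.24 with IL-3 and 0.71 without IL-3, a difference of 0.52, and its second probe set gave 0.46. Upp1, uridine phosphorylase, had 0.44 with IL-3 and 0.07 without IL-3, a difference of 0.36. Uck1, the related kinase, had -0.01 with IL-3 and 0.01 without IL-3, a difference of -0.02. Uckl1, a uridine kinase-like gene, differed by -0.30. Cmpk1, the cytosolic UMP/CMP kinase, had 0.84 with IL-3 and 0.80 without IL-3, a difference of 0.04 that turned to -0.10 with quantile normalization and -0.20 with the loess trend subtracted. Cmpk2, a mitochondrial kinase known as an interferon-stimulated gene, had 0.00 with IL-3 and -0.02 without IL-3.

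The PRPP synthetases differed by less than 1.5-fold. Prps1 had 1.24 with IL-3 and 0.68 without IL-3, a difference of 0.56, and Prps2, the second synthetase, had 1.28 with IL-3 and 0.86 without IL-3, a difference of 0.41. The gap between their differences, 0.15, was about the probe set SD. With the loess trend subtracted their median was 0.15, with Prps1 at 0.25 and Prps2 at 0.048, below that SD.

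All 6 genes of purine synthesis up to IMP were above 0, with a median of 0.72, and 4 of them were at least 1.5-fold higher, against 3.52% of all genes. With the loess trend subtracted only Pfas still passed 1.5-fold and the median was 0.43, and with quantile normalization Ppat was also below 1.5-fold. Ppat, the amidotransferase of the committed step, had 1.44 with IL-3 and 0.77 without IL-3, which is 1.59-fold higher. Gart, a trifunctional enzyme of the early steps, had 1.49 with IL-3 and 0.64 without IL-3, which is 1.79-fold higher. Pfas, which acts between the steps of Gart, had 0.84 with IL-3 and 0.07 without IL-3, which is 1.72-fold higher. Adsl, adenylosuccinate lyase, which serves both this route and the route to AMP, had 1.43 with IL-3 and 0.56 without IL-3, which is 1.83-fold higher. Atic, which closes the ring to IMP, had 0.89 with IL-3 and 0.36 without IL-3, a difference of 0.53. Paics, the bifunctional enzyme in the middle of the route, stood apart at 0.78 with IL-3 and 0.65 without IL-3, a difference of 0.13 that is below the probe set SD. The sign of Paics changed to -0.06 with the loess trend subtracted, whereas the other genes of the route stayed above 0.

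**Figure D3:**
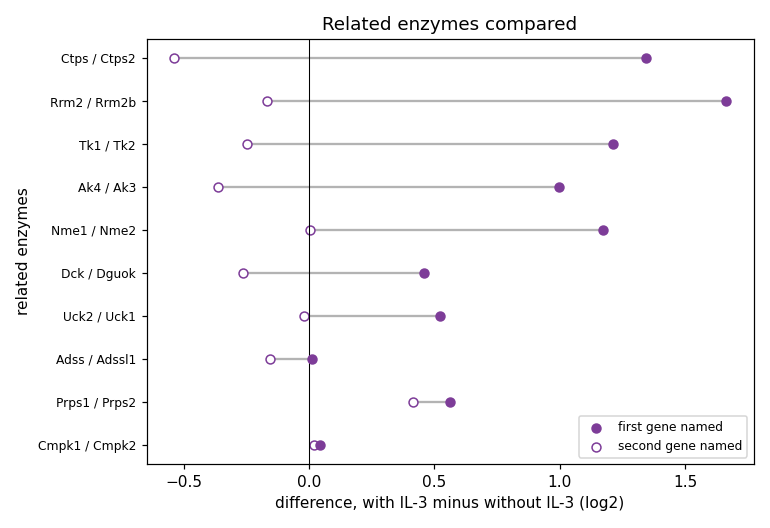
Difference between the arrays (horizontal axis, log2, with IL-3 minus without IL-3) for the 10 measured pairs of enzymes with related functions, with a filled circle for the gene named before the slash and an open circle for the gene named after it. In 5 pairs the genes lie at least 2-fold apart, from Nme1 and Nme2 at 1.17 to Ctps and Ctps2 at 1.88.

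From IMP onwards the differences were smaller, with a median of 0.10 over 4 measured genes. Impdh1, the other IMP dehydrogenase, which opens the route to GMP, had 0.74 with IL-3 and 0.12 without IL-3, which is 1.53-fold higher. It no longer passed 1.5-fold with quantile normalization, at 0.57, or with the loess trend subtracted, at 0.55. Gmps, which aminates XMP to GMP, had 0.84 with IL-3 and 0.66 without IL-3, a difference of 0.18. Adss, which takes IMP towards AMP, had 1.01 with IL-3 and 1.00 without IL-3, a difference of 0.01. Adssl1, the muscle form of that enzyme, had 0.32 with IL-3 and 0.47 without IL-3, a difference of -0.16. The median of this role was below 0 under other scalings, at -0.048 with quantile normalization and -0.12 with the loess trend subtracted, where Gmps and Adss stood at -0.02 and -0.32.

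Among the adenylate and guanylate kinases, Ak4 and Guk1 were higher. Ak4, a mitochondrial adenylate kinase, had 1.06 with IL-3 and 0.06 without IL-3 (probe set 10472923), a difference just under 2-fold, and its second probe set gave 0.72. Guk1, which phosphorylates GMP, had 1.16 with IL-3 and 0.57 without IL-3, a difference of 0.58 just under 1.5-fold. Ak3, the mitochondrial kinase that uses GTP, was lower, with 0.35 with IL-3 and 0.71 without IL-3, a difference of -0.36. Ak1, the cytosolic adenylate kinase, differed by 0.03.

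The nucleoside diphosphate kinases, which pass phosphate between nucleotides, differed widely among themselves. Nme1, a main cytosolic member, had 1.66 with IL-3 and 0.49 without IL-3 (probe set 10389865), a 2.26-fold difference that ranked 35 among all genes. Nme6, a mitochondrial member, had 0.84 with IL-3 and 0.11 without IL-3, which is 1.66-fold higher, but its second probe set gave 0.26. Nme7, known as a part of the gamma-tubulin ring complex and of cilia, was the lowest of the 49 genes, with -1.43 with IL-3 and -0.05 without IL-3 (probe set 10351277). It was 2.59-fold lower and ranked 49 from the lowest among all genes, and its fold was at least 2-fold lower under each alternative that kept the gene. Nme2 had 0.00 on both arrays, Nme3 differed by -0.03 and Nme4, another mitochondrial member, by 0.15. Nme1 and Nme2 are neighbours in the genome and alike in sequence, so probes may not separate them fully. The probe sets of Tk1, Ak4 and Nme6 could not be placed on the genome here. Whether they also match related sequences was not checked.

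Salvage of purine bases was higher. Hprt, which recycles hypoxanthine and guanine, had 1.85 with IL-3 and 0.81 without IL-3 (probe set 10599627), a 2.06-fold difference. Aprt, which recycles adenine, had 0.77 with IL-3 and 0.21 without IL-3, a difference of 0.56. With the loess trend subtracted Hprt no longer passed 1.5-fold. Hprt is often used as a reference transcript in expression assays.

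The genes that degrade nucleotides or nucleosides differed in both directions. Ada, adenosine deaminase, had 0.81 with IL-3 and 0.11 without IL-3, which is 1.63-fold higher. Nt5c2, the cytosolic nucleotidase that favours IMP and GMP, had -0.14 with IL-3 and 0.48 without IL-3, which is 1.53-fold lower. Pnp, purine nucleoside phosphorylase, had 0.84 with IL-3 and 0.88 without IL-3, a difference of -0.04. Samhd1, the triphosphohydrolase that degrades deoxynucleotides, had 0.16 with IL-3 and 0.17 without IL-3, a difference of -0.02. The median of this role was -0.03.

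Related enzymes often differed from each other. Of 10 measured pairs with the same or a closely related reaction, 7 had differences of opposite sign, and in 5 the members lay at least 2-fold apart. In 2 of the 7, those of Uck1 and of Adss, 1 member differed by less than the probe set SD. With median centring, quantile normalization or the loess trend subtracted, Adss and Adssl1 had the same sign, whereas Nme1 and Nme2 had opposite signs. Cmpk1 and Cmpk2 also had opposite signs with quantile normalization or the loess trend subtracted. The share of opposite signs among other pairs of genes was not computed. The widest gap was between Ctps and Ctps2, at 1.88 on the log2 scale, followed by Rrm2 and Rrm2b at 1.83, Tk1 and Tk2 at 1.46, Ak4 and Ak3 at 1.36, and Nme1 and Nme2 at 1.17. Dck and Dguok were 0.72 apart and Uck2 and Uck1 0.54 apart. Cmpk1 and Cmpk2, Prps1 and Prps2, and Adss and Adssl1 were within 0.17 of each other. With the loess trend subtracted, 4 pairs lay at least 2-fold apart, and the gap between Nme1 and Nme2 was 0.81. The gap between Ctps and Ctps2 was then 1.66.

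Other genes of nucleotide metabolism had smaller differences. Of 49 such genes 42 were measured, with a median difference of 0.12. Their median value was 0.21 with IL-3 and 0.14 without IL-3, below the 0.81 and 0.37 of the members. Genes outside the top quartile by mean value scattered less between the arrays, so the 2 lists are not alike in this respect. Of these 42, 31 were above 0 (73.8%, against 59.8% of all genes), 4 were at least 1.5-fold higher (9.52%, against 3.52%) and 1 was at least 1.5-fold lower (2.38%, against 2.71%, and so near the share of all genes). Mthfd1, a cytosolic folate enzyme that feeds carbon to purines, had 1.58 with IL-3 and 0.51 without IL-3, which is 2.11-fold higher. Mtap, which recovers adenine from methylthioadenosine, had 1.38 with IL-3 and 0.34 without IL-3, which is 2.07-fold higher. Dnph1 and Dctpp1, hydrolases that act on deoxynucleotides, were 1.59-fold and 1.51-fold higher. Gda, guanine deaminase, had 0.60 with IL-3 and 1.35 without IL-3, which is 1.69-fold lower. The 5 measured nucleoside transporter genes differed by -0.07 to 0.30, and the 5 measured genes that degrade purine and pyrimidine bases by -0.03 to 0.47.

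**Figure D4:**
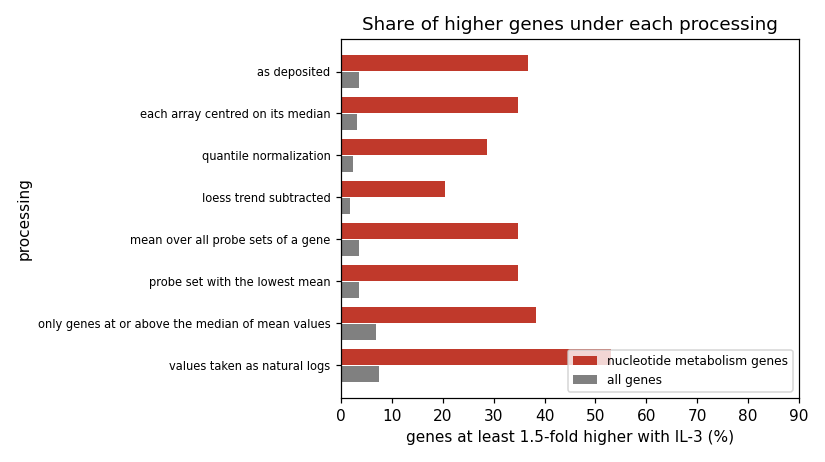
Share of genes at least 1.5-fold higher with IL-3 (horizontal axis, %) under the deposited scale and each alternative processing, for the nucleotide metabolism genes and for all genes. The share of the nucleotide metabolism genes ranges from 20.4% to 53.1% and is above that of all genes, from 1.79% to 7.40%, in each setting.

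Promoter sequence was available for 47 of the genes from RefSeq (GRCm38.p6), as windows from 250 bases before to 50 bases after the annotated start, 70 windows in all since some genes have several. Rrm2b, Dhodh and Pfas had no entry. The windows shown belong to the gene with the largest difference (Rrm2), to the thymidine kinase past 2-fold (Tk1), to the gene past 2-fold with a MYC-type E-box (Nme1, the upstream of its windows) and to the only gene past 2-fold on the lower side (Nme7). Capitals mark the E-box CACGTG, the E2F-type motif TTTCCCGC and the CCAAT box, each on either strand.
Rrm2, chr12:24708004-24708303, strand plus: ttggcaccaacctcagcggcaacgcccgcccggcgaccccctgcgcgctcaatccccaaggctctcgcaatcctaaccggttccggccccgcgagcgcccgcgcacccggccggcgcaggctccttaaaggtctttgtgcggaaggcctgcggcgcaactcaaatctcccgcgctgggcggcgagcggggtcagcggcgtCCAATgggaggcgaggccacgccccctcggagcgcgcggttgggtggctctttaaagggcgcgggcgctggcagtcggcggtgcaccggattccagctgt
Tk1, chr11:117825965-117826264, strand minus: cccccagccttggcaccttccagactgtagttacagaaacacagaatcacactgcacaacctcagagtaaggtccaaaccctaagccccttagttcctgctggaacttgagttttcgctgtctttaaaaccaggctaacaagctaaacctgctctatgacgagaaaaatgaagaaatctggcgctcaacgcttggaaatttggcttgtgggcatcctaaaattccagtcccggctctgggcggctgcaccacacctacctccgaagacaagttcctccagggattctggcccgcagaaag
Nme1, chr11:93968223-93968522, strand minus: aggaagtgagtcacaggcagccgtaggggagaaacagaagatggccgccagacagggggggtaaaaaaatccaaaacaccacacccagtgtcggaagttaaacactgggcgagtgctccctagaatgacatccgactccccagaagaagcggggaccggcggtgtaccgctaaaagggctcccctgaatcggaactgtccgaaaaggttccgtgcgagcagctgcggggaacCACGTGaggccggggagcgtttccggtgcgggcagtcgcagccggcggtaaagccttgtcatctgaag
Nme7, chr1:164307422-164307721, strand plus: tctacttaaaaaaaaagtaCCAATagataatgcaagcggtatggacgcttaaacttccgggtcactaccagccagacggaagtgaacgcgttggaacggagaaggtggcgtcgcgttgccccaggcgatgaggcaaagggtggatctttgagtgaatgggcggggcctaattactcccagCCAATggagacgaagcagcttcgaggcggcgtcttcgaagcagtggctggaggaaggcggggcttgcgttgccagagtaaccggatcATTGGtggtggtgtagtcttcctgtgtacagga

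The Rrm2 window holds a CCAAT box that begins 50 bases before the start, the Nme1 window an E-box that begins 18 bases before the start, and the Nme7 window 3 CCAAT boxes over both strands, whereas none of these motifs was found in the Tk1 window. Over the 47 genes, an E-box CACGTG lay in a window of 8 (17.0%), against 8.09% of all 27025 genes with a window. It lay in 3 of 17 genes that were at least 1.5-fold higher (17.6%) and in 4 of 29 measured genes that were not (13.8%), and also in the unmeasured Impdh2. TTTCCCGC lay in windows of 2 genes, Ppat and Prps2 (4.26%, against 1.24% of all genes), and TTTGGCGC in 0 of the 47 genes (against 0.585%). CCAAT lay in 17 of the 47 genes (36.2%, against 41.1%), and TGATGNAA, the letters of an ATF4-type element, in 1 gene, Prps1 (2.13%, against 4.51%). Genes with several windows have more places for a match. Per window, the E-box lay in 12.9% of the 70 windows (against 7.15% of all windows) and CCAAT in 27.1% (against 37.4%). All motifs were searched on both strands, and none contains another. A match is a description of the window and not a site of binding. The regulator genes themselves differed by 0.39 for Myc and 0.49 for E2f1, neither at 1.5-fold.

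Markers of cell types could not be read as levels, since the values are relative to a baseline. Of 11 measured B-lineage markers 0 differed by 1.5-fold, near the shares of all genes (3.52% higher and 2.71% lower). The B-lineage values summed to -0.59 with IL-3 and -0.47 without IL-3. With IL-3, 3 of 10 mast cell and basophil markers and 4 of 9 granulocyte markers were lower by 2-fold or more, against 0.657% of all genes. Their summed values were -2.15 and -5.62 with IL-3, against 3.90 and 2.63 without IL-3. A sum of baseline-relative log values is not a total of RNA, and single genes can weigh heavily in it. The differences were -2.46 for Fcer1a of the mast cell and basophil list, in which 3 of the 10 markers were above 0. In the granulocyte list they were -2.87 for Ngp, -2.76 for Prg2 and -2.09 for Epx. The median difference was -0.37 for the mast cell and basophil list and -0.10 for the granulocyte list, in which 3 of the 9 markers were above 0. Of 8 macrophage markers 1, Adgre1, was past 1.5-fold, at 1.73-fold lower with IL-3, and their values summed to 0.34 with IL-3 and 0.90 without IL-3. The part of such cells or programmes in the differences of the nucleotide metabolism genes was not tested.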

How the data were processed

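RNA from 2 cultures was labelled with biotin and hybridised to 1-colour mouse Gene 1.0 ST arrays, per the labels' protocols. The authors deposited processed values for 28815 probe sets on each array, read here as log2 since no log base is given. The values themselves show a per-probe-set baseline: both columns have medians near 0 (-0.03 with IL-3, -0.05 without IL-3), and in 1760 probe sets the values are equal and opposite within 1e-05. How background, summarisation, normalization and the baseline were handled is not given in the sources used here. If the logs are natural, all folds are larger.

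Probe sets were named from the platform annotation where it gives 1 symbol (21780 probe sets, 19935 genes). The baseline cancels in the difference, so no low-value filter was applied. Genes were counted at fixed folds of 2 and 1.5. Named are all members, with values of both arrays for those past 1.5-fold and for related pairs, and other nucleotide genes past 1.5-fold. The members and lists were chosen with earlier results of these data known, and the replication and regulator genes after the values were seen. Alternatives were median centring, quantile normalization, a loess trend (span 0.3, statsmodels 0.14.6), other probe set choices, a filter and natural logs. Protein sequences were not used here. Counting was tested on simulated data. Analysis used Python 3.11.15 and pandas 2.3.3.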

Additional observations from a re-analysis of the deposited data

How the results depend on the processing

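No paired analysis was possible because each group had 1 array. Centring on the median and both other choices of probe set left the counts of the members within 1.5 times of those reported. The median of the members stayed between 0.41 and 0.43. Centring shifts every difference by the same amount, and only 4 of the 49 members had more than 1 probe set. These settings could therefore change little. Quantile normalization gave medians of 0.33 for the PRPP synthetases and -0.048 from IMP to AMP and GMP. Among the other nucleotide genes it put 1 at least 2-fold higher (against 0.311% of all genes) and 2 at least 1.5-fold higher (against 2.41%). Subtracting the loess trend gave the fewest higher members. It left 2 genes at least 2-fold and 10 at least 1.5-fold higher (against 0.145% and 1.79% of all genes), with a median of 0.25. The role medians were 0.50 for ribonucleotide reductase, 0.63 for pyrimidine synthesis, 0.15 for the PRPP synthetases, 0.43 for purine synthesis to IMP, -0.12 from IMP to AMP and GMP and 0.51 for purine base salvage. Among the other nucleotide genes, 0 were at least 2-fold higher (against 0.145% of all genes) and 1 was lower by 2-fold (against 1.03%). At 1.5-fold, 2 were higher (against 1.79%) and 2 were lower (against 3.70%). With that trend subtracted 5 of the 49 members changed sign (Cmpk1, Nme2, Paics, Gmps and Adss), and with quantile normalization 3 did (Cmpk1, Nme2 and Adss). Keeping genes at or above the median mean value dropped Nme7 and Uckl1. On the lower side 0 members then passed 2-fold (against 1.01% of all genes kept) and 1 passed 1.5-fold (against 4.30%). Read as natural logs, the values put 14 members at least 2-fold higher (against 2.10% of all genes), with a median of 0.62. The role medians were then 1.06 for ribonucleotide reductase, 0.86 for thymidylate and dUTP, 1.34 for pyrimidine synthesis, 0.70 for the PRPP synthetases, 1.04 for purine synthesis to IMP and 1.16 for purine base salvage. Of the other nucleotide genes, 9 were then higher by 1.5-fold (against 7.40% of all genes). Lower by 1.5-fold were 2 (against 5.42%), 1 of these by 2-fold (against 1.88%). Among all genes, 40.2% of those past 2-fold were higher on the deposited scale, 27.8% after quantile normalization and 12.4% with the loess trend subtracted. The cause of these shifts was not tested. With 1 array per group, the number of arrays limits the precision, and signal over background could not be judged from baseline-relative values.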

Other observations

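The 8 members with a mitochondrial product (Tk2, Dguok, Ak3, Ak4, Dhodh, Cmpk2, Nme4 and Nme6, grouped after their values were seen) had a median difference of 0.09, against 0.43 over all 49 members. They ranged from -0.36 for Ak3 to 1.00 for Ak4. Of the 8, 5 were above 0, near the 59.8% of all genes. Ak4 and Nme6, 2 of the 8, were at least 1.5-fold higher, against 3.52% of all genes. The probe sets disagreed for Nme6, at 0.73 and 0.26, and less for Ak4, at 1.00 and 0.72.

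Ppat and Paics, which encode the committed step and a middle step of purine synthesis, are neighbours on chromosome 5 on opposite strands, and their annotated starts lie 276 bases apart in GRCm38.p6. Their differences were 0.67 for Ppat and 0.13 for Paics on the log2 scale. Nme1 and Nme2, the other neighbouring members, lie on chromosome 11 and differed by 1.17 and 0.00.

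For Nme2 and Uck1 the values of both arrays were equal in size and opposite in sign, within 1e-05, as for 1760 probe sets in all. Both genes thus lie symmetrically about a baseline whose arrays are not known.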
